A study of Mus musculus with 24 samples.

Results

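Kidneys of Dmrt2 knockout mouse embryos were compared with kidneys of control littermates across all genes, and the effect was then read by nephron segment, by function and by position in the genome. The comparison holds the 3 libraries titled Dmrt2 KO and the 3 titled Dmrt2 control, 6 of the 24 libraries in the series. The other 18 come from Hmx3 Hmx2 and triple knockout lines and their controls, and the 9 controls among them serve here as a further level for the genes called. All 18 enter a single alternative, the joint fit of 24 libraries. Each library is poly(A) RNA of a whole kidney at embryonic day 18.5, shortly before birth, measured by bulk RNA sequencing. The knockouts are labelled Dmrt2 KO and the controls carry the strain label Dmrt2. The labels give neither the exons that the allele removes nor the genotype of the controls. They do not say that the libraries of a group are separate embryos, and p-values here rest on the spread from library to library alone, part of which may be technical.

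Dmrt2 encodes a transcription factor with a DM domain, a zinc-binding DNA-binding fold shared with the sex-determining factors of the same family. The series asks what Dmrt2, Hmx2 and Hmx3 do in the diversity of intercalated cells. These collecting duct cells carry proton pumps and anion exchangers: type A cells secrete acid into the urine, while type B cells, like the related non-A non-B form, carry the apical exchanger pendrin. In whole kidney RNA, fewer cells of a type and less RNA per cell cannot be told apart.

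The 6 libraries held 61563937 to 127339273 counted reads, and levels are given as CPM, the count scaled to the library total, in which 3 reads were worth 0.0236 to 0.0487. Y-linked genes, 4 of which were summed, stood at 140.3 to 183.9 CPM in knockout library 1 and the 3 controls and at 0 to 0.0325 CPM in knockout libraries 2 and 3. The sex of the embryo is therefore not balanced between the groups, and the comparison was repeated in the 4 Y-expressing libraries, where 16 of the 88 calls made over all 6 libraries were called. Podocyte markers summed to 2127 to 2444 CPM and proximal tubule markers to 4099 to 5375 CPM over the 6 libraries, as kidney tissue has. Of 8 adrenal gland markers 4 were too low to test, among them the steroid hydroxylase genes Cyp21a1 and Cyp11b1, and the list summed to 6.29 to 8.25 CPM.

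The targeted gene was examined first. Dmrt2 (chromosome 19, 25649775 to 25656355 on mm39) stood at 2.17, 2.27 and 1.57 CPM in the knockouts and at 12.4, 13.98 and 14.9 CPM in the controls. Every knockout library lay below every control, a 6.94-fold difference (log2 fold change −2.80 ± 0.15 SE, edgeR quasi-likelihood test, adjusted p = 1.4e-06). The remaining reads do not show which exons were transcribed. A transcript annotated 158 bases from Dmrt2, 2610016A17Rik, fell with it, from 0.8001 to 0.0975 CPM (−3.18 ± 0.56, adjusted p = 0.034). The counting used no strand, so reads from the strand of Dmrt2 and from the opposite strand cannot be told apart there.

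Of 66 tested genes within 5 Mb of Dmrt2 these and 1 further gene were called, all lower. The further gene was Tmem252, which encodes a small transmembrane protein and lies 0.998 Mb away. Tmem252 stood at 43.0, 37.9 and 41.2 CPM in the knockouts and 83.8, 93.6 and 113.0 CPM in the controls (log2 fold change −1.25 ± 0.10, adjusted p = 0.0011). The 9 controls of the other lines held 59.4 to 121 CPM, so the knockouts stood apart and the Dmrt2 controls did not. Apart from 2610016A17Rik, the tested genes lying nearer to Dmrt2 than Tmem252 did not pass. Among them were Kank1 (0.12), Dock8 (0.07) and Smarca2 (0.07 on the log2 scale), which were chosen by distance after their values were seen. The call for Tmem252 was lost in the Y-expressing libraries alone (log2 fold change −1.17, adjusted p = 0.12), and over 19 alternatives its adjusted p ranged from 3.2e-75 to 0.16.

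Across the genome few genes were called. Of 19807 genes tested 88 were called at an adjusted p under 0.05, 0.444% of those tested, with 37 higher (0.187%) and 51 lower (0.257%). An unadjusted p under 0.05 was reached by 2443 genes (12.3%), the share against which such counts are read below. DESeq2, an alternative tool, called 434 of the 16335 genes it tested, and its counts in lists are read against that. The median log2 fold change of all tested genes was −0.0021. In each of the 88 the knockout and control libraries did not overlap, while 17.8% of all tested genes also had groups that did not overlap. The calls were not spread evenly over the genome: 18 lay on chromosome 3, 14 were copies of chromosome 3 genes elsewhere, 3 lay near Dmrt2, and 53 of 17880 genes (0.296%) made up the rest. Within these 53, leaving aside clone-named genes, the largest increases were Tldc2 and Slc26a4 and the largest decreases Aqp6 and Slc4a1. In 19 alternative analyses every main call that could be tested kept its sign, and 11 of the 88 stayed called in each alternative that tested them.

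**Figure D1:**
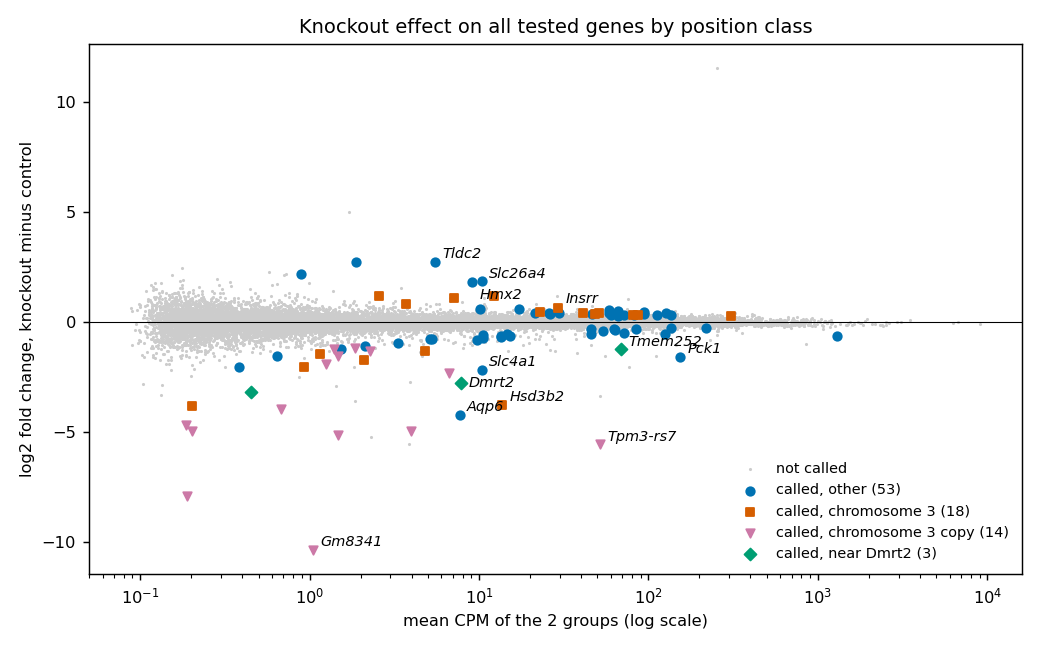
Log2 fold change of each tested gene (vertical axis, knockout minus control) against its mean CPM over both groups (horizontal axis, log scale); called genes are coloured by position class and grey points are genes not called. Most genes lie near 0, and the called copies of chromosome 3 genes all lie below 0.

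Start regions of the genes on which the intercalated result turns are shown so that a reader can see the sequence beside the values. Of 10 genes looked up (the called members of the 3 intercalated cell lists, Hmx2 and Tldc2), 7 had an entry in the RefSeq promoter table on GRCm38.p6. The 250 bases before the annotated start are printed 5′ to 3′ on the strand of the gene, for the strongest decrease, the strongest increases and the intercalated gene that fell among type B genes. Capitals mark matches on either strand to ACANTGT, a core that resembles DM-domain sites, to GTAAACA, a forkhead core, or to CAAGTG, a core of Hmx-type homeodomains. No motif overlapped another in these windows.
Aqp6, chr15:99600950-99601199, plus strand: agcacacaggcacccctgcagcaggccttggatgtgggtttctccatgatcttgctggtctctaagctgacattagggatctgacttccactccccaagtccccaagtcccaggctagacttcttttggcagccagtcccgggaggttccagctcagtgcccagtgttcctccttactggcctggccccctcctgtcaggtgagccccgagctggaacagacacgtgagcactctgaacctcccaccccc
Oxgr1, chr14:120042436-120042685, minus strand: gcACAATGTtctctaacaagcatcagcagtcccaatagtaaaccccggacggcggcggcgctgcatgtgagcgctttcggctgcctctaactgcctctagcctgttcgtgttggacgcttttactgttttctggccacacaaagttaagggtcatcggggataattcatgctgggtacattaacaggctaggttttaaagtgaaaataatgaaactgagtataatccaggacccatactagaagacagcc
Slc26a4, chr12:31559985-31560234, minus strand: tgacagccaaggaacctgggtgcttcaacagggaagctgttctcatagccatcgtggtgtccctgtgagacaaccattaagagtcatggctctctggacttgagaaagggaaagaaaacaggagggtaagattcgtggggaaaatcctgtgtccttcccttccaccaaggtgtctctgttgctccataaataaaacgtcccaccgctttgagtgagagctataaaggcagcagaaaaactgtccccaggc
Tldc2, chr2:157086760-157087009, plus strand: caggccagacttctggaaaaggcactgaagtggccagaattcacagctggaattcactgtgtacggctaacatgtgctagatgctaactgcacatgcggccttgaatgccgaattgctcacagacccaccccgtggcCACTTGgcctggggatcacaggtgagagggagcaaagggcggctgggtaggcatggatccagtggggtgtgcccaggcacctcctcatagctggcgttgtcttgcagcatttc
Of the 7 genes, 1 (Oxgr1) held ACANTGT, 0 held GTAAACA and 1 (Tldc2) held CAAGTG in these windows. Over all 32851 windows of the table the shares were 6.47%, 3.17% and 11.6%. Counted by gene, as above, they were 4.67%, 2.96% and 11.8% of the 13453 tested genes with a window. A match is a description of letters in the window and not a bound site.

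Genes of type A intercalated cells fell or lay below 0 in all 5 members of the list, with a median log2 fold change of −0.56 beside −0.0021 over all genes. 3 were called, all lower. Aqp6 (chromosome 15), an anion-conducting aquaporin of intracellular vesicles, stood at 0.849, 0.914 and 0.611 CPM in the knockouts and 12.2, 13.2 and 18.5 CPM in the controls. That is an 18.9-fold fall (log2 fold change −4.24 ± 0.21, adjusted p = 1.5e-06), with every knockout library below 1 CPM. Slc4a1 (chromosome 11), which encodes the basolateral chloride-bicarbonate exchanger AE1, stood at 3.16, 3.69 and 4.34 CPM against 18.6, 15.5 and 17.1 CPM, 4.55-fold lower (−2.19 ± 0.13, adjusted p = 2.4e-06). Its knockout libraries all lay under the lowest control.

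Slc4a1 is also expressed by red blood cells. Over 9 tested erythroid genes edgeR called 0, with 1 at an unadjusted p under 0.05, and DESeq2 also called 0. The list summed to 1183 to 1336 CPM in the knockouts and 1084 to 1420 CPM in the controls. Kit, a receptor tyrosine kinase gene, fell less, from 53.1, 54.6 and 54.99 CPM in the controls to 39.2, 38.0 and 33.4 CPM in the knockouts (−0.56 ± 0.07, adjusted p = 0.0023). The groups did not overlap, but the Kit call was lost in the Y-expressing libraries alone, where the log2 fold change was −0.47 (adjusted p = 0.25, with 6.3e-13 to 0.32 over all alternatives). Aqp6 (−4.11) and Slc4a1 (−2.43) were called there. Adgrf5, an adhesion receptor gene (−0.27, adjusted p = 0.11), and Slc26a7, an anion exchanger gene (−0.26, adjusted p = 0.32), did not pass by edgeR. DESeq2 called Adgrf5 lower (adjusted p = 0.011, in a range of 0.0023 to 0.94 over all alternatives).

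**Figure D2:**
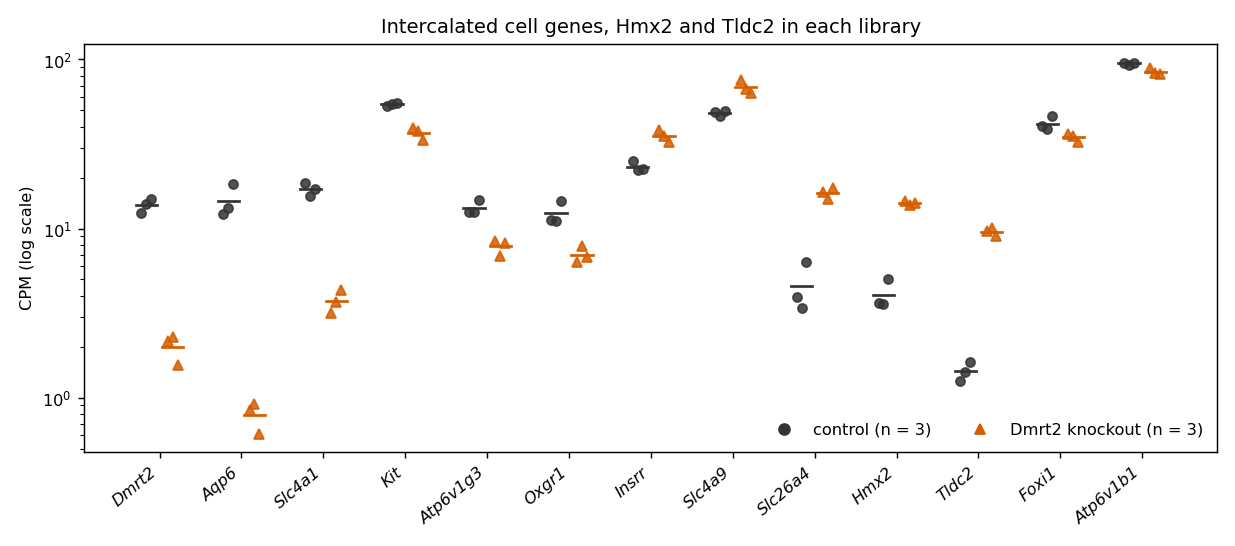
CPM of 13 genes in each library (log scale); circles are the 3 controls, triangles the 3 Dmrt2 knockouts and bars the group means. Aqp6 fell from 14.6 to 0.791 CPM on average while Slc26a4 rose from 4.56 to 16.3 CPM and Tldc2 from 1.44 to 9.58 CPM.

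The list for type B intercalated cells, which also holds markers of the non-A non-B form, mostly moved the other way. Of 7 tested members 3 rose and 1 fell, with a median log2 fold change of 0.52. Slc26a4 (chromosome 12), which encodes pendrin, stood at 16.5, 14.95 and 17.5 CPM in the knockouts and 3.94, 3.40 and 6.34 CPM in the controls. The 3.58-fold rise (1.84 ± 0.22, adjusted p = 0.016) left the lowest knockout well above the highest control. Of 19 alternatives, 5 moved the adjusted p past 0.05, and in the Y-expressing libraries alone the rise was 1.85 on the log2 scale with an adjusted p of 0.30. Over all alternatives its adjusted p ranged from 4.0e-44 to 0.42.

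Slc4a9 (chromosome 18), the basolateral anion exchanger AE4 of type B cells, rose from 48.7, 46.2 and 49.3 CPM to 76.1, 66.9 and 63.4 CPM (0.52 ± 0.07, adjusted p = 0.0058). Per kilobase of exon its mean level went from 7.51 to 10.7 CPM, and that of Slc26a4 from 1.47 to 5.24, so the transcript of Slc4a9 remained the more abundant of the pair. Insrr, an insulin-receptor-related kinase gene that senses alkaline pH, rose from 24.97, 22.3 and 22.4 CPM to 38.5, 35.1 and 32.6 CPM (0.61 ± 0.08, adjusted p = 0.0048). Insrr lies on chromosome 3, where calls were frequent; its knockout levels were above the 15.99 to 19.95 CPM of the 9 other controls, and so were those of its Dmrt2 controls. Slc4a9 and Insrr stayed called in every alternative that tested them.

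Oxgr1, the receptor of 2-oxoglutarate found on type B cells, was the called member that fell. It stood at 6.32, 7.90 and 6.82 CPM in the knockouts and 11.2, 11.1 and 14.6 CPM in the controls (−0.81 ± 0.13, adjusted p = 0.024). The groups did not overlap, but 6 of 19 alternatives lost the call, among them leaving out any of the 3 knockout libraries (adjusted p from 0.051 to 0.085). Over all alternatives it ranged from 6.6e-09 to 0.42, with 0.28 in the Y-expressing libraries at a log2 fold change of −0.96. Sh2d4b, an SH2 adaptor gene (0.67, adjusted p = 0.16), Slc4a8, a sodium-driven bicarbonate exchanger gene (0.03), and Spink8, a protease inhibitor gene (−0.40, adjusted p = 0.33), did not pass.

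The homeobox gene Hmx2 (chromosome 7) rose in the Dmrt2 knockouts, to 14.5, 13.8 and 14.2 CPM from 3.60, 3.57 and 5.04 CPM (1.80 ± 0.14, adjusted p = 3.0e-05). The 9 controls of the other lines held 1.57 to 3.31 CPM, below the Dmrt2 controls as well. Its neighbour Hmx3 was low in both groups, at 0.878, 1.08 and 0.894 CPM against 0.139, 0.0515 and 0.398 CPM. The Hmx3 groups did not overlap, and the difference did not pass the test (2.28 ± 0.52, adjusted p = 0.098), while DESeq2 called it (adjusted p = 0.0018, in a range of 9.2e-07 to 0.94 over 18 alternatives).

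Tldc2 (chromosome 2), a member of the TLDc family whose proteins bind the vacuolar proton pump, was the strongest named increase. It stood at 9.64, 10.04 and 9.06 CPM in the knockouts and 1.26, 1.42 and 1.63 CPM in the controls, 6.66-fold higher (2.74 ± 0.14, adjusted p = 9.9e-07). The 9 other controls ranged from 0.507 to 1.41 CPM, far under every knockout library. The other 4 TLDc genes did not pass, with log2 fold changes from 0.00 for Meak7 to 0.11 for Ncoa7, both named after their values were seen.

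Of 15 genes shared by all intercalated cells 14 lay below 0, with a median of −0.16. By edgeR 1 was called and 7 had an unadjusted p under 0.05. With DESeq2 there were 3 calls, all lower. The list summed to 1038 to 1093 CPM in the knockouts and 1099 to 1240 CPM in the controls, without overlap. The transcription factor gene Foxi1, a regulator of intercalated cell identity, stood at 36.1, 35.4 and 32.7 CPM against 40.3, 39.0 and 46.0 CPM (−0.27 ± 0.07, adjusted p = 0.16). Those groups did not overlap, but the difference did not pass. Tfcp2l1, a factor of the collecting duct (−0.09), and the pump subunit genes Atp6v1b1 (−0.16, adjusted p = 0.24) and Atp6v0a4 (−0.11) also did not pass.

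The called member was Atp6v1g3, the G3 subunit of the V-ATPase peripheral stalk. Its level was 8.46, 6.89 and 8.23 CPM in the knockouts and 12.6, 12.5 and 14.8 CPM in the controls (−0.75 ± 0.11, adjusted p = 0.015), without overlap. Leaving out knockout library 2 raised the adjusted p to 0.098, in a range of 4.1e-08 to 0.66 over all alternatives, and in the Y-expressing libraries the log2 fold change was −0.65 (adjusted p = 0.61). Among 22 V-ATPase subunits it was the 1 called by edgeR, with 9 at an unadjusted p under 0.05. DESeq2 also called Atp6v1g1, lower, which is named for that call (−0.19, adjusted p = 0.15 by edgeR). The list had a median of −0.08, with 17 members below 0. Atp6v0d2 (−0.20) and Atp6v1c2 (0.01) are further subunits of the intercalated list. The summed V-ATPase level was 1789 to 1845 CPM in the knockouts and 1826 to 2048 CPM in the controls, ranges that overlap.

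Ammonia, carbonic anhydrase and chloride genes of the same cells did not pass one by one. Rhbg, a basolateral ammonia transporter gene on chromosome 3, stood at 2.08, 1.58 and 1.69 CPM against 3.06, 3.29 and 3.42 CPM (−0.87 ± 0.17, adjusted p = 0.055), and the apical Rhcg at −0.09. Car2, cytosolic carbonic anhydrase 2, also on chromosome 3, gave −0.39 (adjusted p = 0.062). Rhbg and Car2 missed the threshold narrowly and DESeq2 called both, lower. Car12 (−0.01), Car15 (−0.20), Hepacam2 (−0.15), and the chloride channel subunit gene Bsnd (−0.06) also did not pass. Of 13 tested carbonic anhydrases 0 were called, with 1 at an unadjusted p under 0.05 and 1 called by DESeq2.

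The anion exchanger families as a whole held 3 calls of 19, the rise of Slc26a4 and Slc4a9 and the fall of Slc4a1, with a median of 0.05. Of 9 tested aquaporins edgeR called 1, Aqp6, at a list median of −0.15. DESeq2 also called Aqp3, lower, which is named for that call (−0.31, adjusted p = 0.16 by edgeR). The water channel gene Aqp2 of principal cells stood at 294.6, 282.5 and 304.1 CPM in the knockouts and 323.6, 386.6 and 556.3 CPM in the controls (−0.52, adjusted p = 0.43). Its groups did not overlap, but the controls themselves differed widely.

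Outside the intercalated cells most lists held no call. Of 11 nephron and ureteric lists 1 had any, and of 10 lists for other cells 0 had. In the 10 nephron and ureteric lists without a call, 20 of 97 tested members (20.6%) had an unadjusted p under 0.05 by edgeR, beside 12.3% of all genes, and DESeq2 called 10. In the lists for other cells these numbers were 10 of 71 (14.1%) and 2. Over all genes DESeq2 called 434 of 16335.

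The ureteric epithelium list had 1 call of 10. Krt19, a keratin gene of collecting duct and other simple epithelia, fell from 58.9, 60.4 and 65.4 CPM to 51.7, 44.4 and 43.2 CPM (−0.41 ± 0.07, adjusted p = 0.037). The 9 other controls held 36.8 to 56.2 CPM, so for Krt19 the Dmrt2 controls, not the knockouts, lay outside their range. The Krt19 call was lost in 9 of 19 alternatives, the replicate block among them, and in the Y-expressing libraries the log2 fold change was −0.25 (adjusted p = 0.94, in a range of 5.5e-07 to 0.94). Among 12 principal cell genes edgeR called 0, with 2 at an unadjusted p under 0.05, and DESeq2 called 1. The median was −0.05, with the vasopressin receptor gene Avpr2 at 1.15 (0.226 against 0.0978 CPM, adjusted p = 0.54). Ureteric tip genes had a median of 0.00 (Ret 0.14, Gfra1 0.25) and nephron progenitor genes one of 0.00 (Osr1 −0.46, Tmem100 −0.41).

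Distal and connecting segments showed values without calls. The connecting tubule list had a median of −0.36: the calcium-binding protein gene S100g stood at 124.0, 86.0 and 75.5 CPM against 135.5, 199.3 and 250.9 CPM (−1.04 ± 0.33, adjusted p = 0.35), and the kallikrein gene Klk1 gave −0.43 (adjusted p = 0.73). The lowest S100g control was close to the highest knockout. Of these 6 genes 2 had an unadjusted p under 0.05 by edgeR, and 1 was called by DESeq2. Distal convoluted tubule genes had a median of 0.04 (Pvalb, parvalbumin, 0.89, and Slc12a3, the thiazide-sensitive cotransporter, 0.29) and loop of Henle genes one of 0.07 (Casr, the calcium-sensing receptor, 0.53, and Ptger3 −0.35).

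Proximal tubule genes had a median of −0.05 over 18 members, 9 of them above and 9 below 0. By edgeR 0 were called and 3 had an unadjusted p under 0.05, while DESeq2 called 3 lower, Kap, Slc22a6 and Slc22a8. Kap, an androgen-regulated kidney protein gene, stood at 75.1, 39.7 and 54.2 CPM in the knockouts and 131.5, 177.1 and 189.3 CPM in the controls (−1.56 ± 0.30, adjusted p = 0.19 by edgeR, in a range of 7.4e-05 to 0.75 over all alternatives, the lowest from DESeq2). Slc5a2, a glucose cotransporter gene, gave 0.46 (adjusted p = 0.72). The groups of Kap did not overlap. Knockout library 1, the sole knockout with Y-linked expression, held the highest of the 3 knockout values and lay below every control. That is 1 library, and 18 of 19 alternatives did not call Kap. In the podocyte list Ptpro, a receptor phosphatase gene, gave 0.30, with a median of 0.06, and the early nephron list had a median of 0.05 (Wnt4 −0.22, Dll1 0.11).

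All 7 urothelium genes lay below 0, with a median of −0.79 and no call. By edgeR 2 of them had an unadjusted p under 0.05, and by DESeq2 1 was called. The uroplakin gene Upk2 stood at 8.43, 6.20 and 3.42 CPM against 12.9, 9.35 and 12.6 CPM (−0.96, adjusted p = 0.37) and the basal keratin gene Krt5 at 0.922, 0.686 and 0.110 CPM against 1.44, 0.206 and 1.89 CPM (−1.09, adjusted p = 0.76). The list summed to 33.4 to 68.1 CPM in the knockouts and 64.2 to 91.5 CPM in the controls, ranges that overlap. How much pelvis or ureter each sample held, and its part in the values, was not tested.

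**Figure D3:**
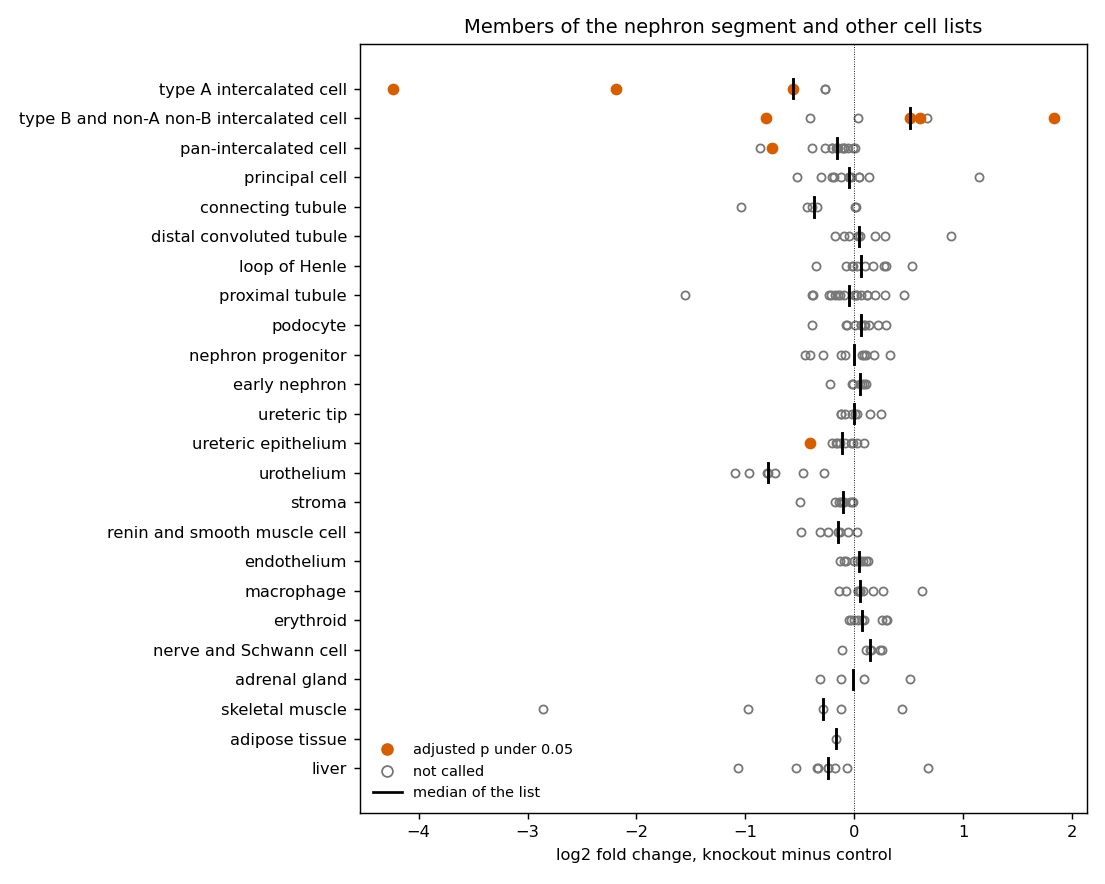
Log2 fold change (horizontal axis, knockout minus control) of the tested members of 24 nephron segment and other cell lists; filled points have an adjusted p under 0.05, open points do not, and bars are list medians. Type A genes lie below 0 down to Aqp6 at −4.24, and Slc26a4 reaches 1.84 in the type B list.

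Among metabolic genes the gluconeogenic enzyme gene Pck1, which also serves ammonia formation in the proximal tubule, fell 3.03-fold. It stood at 86.2, 59.1 and 84.6 CPM in the knockouts and 246.1, 202.0 and 248.0 CPM in the controls (−1.60 ± 0.17, adjusted p = 0.040). The groups were well apart, yet 8 of 19 alternatives lost the call, and its adjusted p was 0.14 without control library 3, in a range of 4.3e-14 to 0.63 over all of them. In the Y-expressing libraries alone Pck1 was called (adjusted p = 0.00092). It was 1 call of 13 in the ammonia and gluconeogenesis list, 11 of which lay below 0 (median −0.13), and DESeq2 called 5 of them lower. Of 20 Slc22 organic ion transporter genes 0 were called (median −0.08, 3 at an unadjusted p under 0.05, 2 by DESeq2), with Slc22a26 at −0.50 and Slc22a6 at −0.39 (adjusted p = 0.088).

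Signalling and state lists held no call. Over the 10 functional lists without one, 20 of 131 members (15.3%) had an unadjusted p under 0.05 by edgeR, beside 12.3% of all genes. DESeq2 called 8 of these members, beside 434 of 16335 genes. Wnt pathway genes had a median of −0.14, with 12 of 15 below 0, the feedback inhibitor gene Nkd1 at −0.28 (adjusted p = 0.061) and the target Sp5 at −0.28. By edgeR 5 of them had an unadjusted p under 0.05, and 2 were called lower by DESeq2. Notch pathway genes had a median of 0.06, with the receptor genes Notch1 at 0.27 (adjusted p = 0.10) and Notch2, on chromosome 3, at 0.26 (adjusted p = 0.054). Of 16 Notch genes 3 had an unadjusted p under 0.05 by edgeR, and both receptors were called higher by DESeq2. Proliferation genes had a median of 0.07 (Mki67 0.23), immediate early and heat shock genes one of −0.01 (Fos 0.50) and interferon response genes one of −0.11 (Mx1 0.56). In MHC class I genes the median was −0.02 (H2-D1 0.44), in chloride channels −0.03 (Clcn6 −0.49, Clcn5 −0.33) and in mitochondrially encoded genes −0.16 (mt-Atp8 and mt-Nd4l −0.23).

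The lists for other cells gave medians from −0.29 for skeletal muscle to 0.15 for nerve and Schwann cells. Stroma genes lay below 0 in 10 of 10 (median −0.11; Postn −0.49) and renin and smooth muscle genes in 6 of 7 (median −0.15; Myh11 −0.49). Endothelial (0.04), macrophage (0.06; Adgre1 0.62) and nerve and Schwann cell genes (0.15) lay slightly above 0. Skeletal muscle genes had a median of −0.29, with Ckm, muscle creatine kinase, at 0 to 0.0653 CPM against 0.155 to 0.360 CPM (adjusted p = 0.15). Liver genes had one of −0.24, with Ttr, transthyretin, at 35.0, 29.7 and 24.7 CPM against 66.3, 53.0 and 67.1 CPM (−1.06 ± 0.15, adjusted p = 0.050, just above the threshold). DESeq2 called Ttr lower (adjusted p = 4.8e-17), and 13 of 19 alternatives did not call it. The liver list summed to 109.7 to 146.8 CPM in the knockouts and 170.3 to 216.0 CPM in the controls, without overlap. Tissue carried over from neighbouring organs was not tested.

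The 53 calls outside chromosome 3, its copies and the Dmrt2 region were 25 higher and 28 lower. Beyond the genes above, the largest decreases were Ugt3a1, a UDP-glycosyltransferase gene (−2.07, 0.145 against 0.620 CPM), Dscaml1, a cell adhesion gene (−1.54), and Muc4, a membrane mucin gene (−1.24, 0.905 against 2.15 CPM). Acat3, a thiolase gene (−1.10), Aldh3b2, an aldehyde dehydrogenase gene (−0.95), and Dnajb3, a heat shock co-chaperone gene (−0.77), followed. Their adjusted p-values ran from 0.024 for Muc4 to 0.048 for Acat3, close to the threshold.

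Among the increases were 4930481A15Rik (2.71 ± 0.39, 3.27 against 0.496 CPM, adjusted p = 0.031) and A930038B10Rik (2.19 ± 0.38, 1.47 against 0.317 CPM, adjusted p = 0.034), clone-named genes given here after their values were seen. After these, Tldc2, Slc26a4 and Hmx2, the increases were under 0.6 on the log2 scale. Zbtb37, a zinc finger gene, reached 0.58 (20.6 against 13.8 CPM), Zdbf2, an imprinted gene, 0.56, Itgb6, an epithelial integrin subunit, 0.49 (77.5 against 55.3 CPM), and P3h2, a collagen prolyl hydroxylase gene, 0.43. The DNA dioxygenase gene Tet1 gave 0.41, the activin receptor gene Acvr2b 0.40 and the histone demethylase gene Kdm7a 0.40. For Zbtb37, Zdbf2, Tet1, Acvr2b and Kdm7a every Dmrt2 control lay outside the range of the other lines' controls, which the knockouts overlapped. For P3h2 the knockouts stood outside and the Dmrt2 controls overlapped, and for Itgb6 both groups overlapped. Of the 25 increases 20 were under 1.5-fold, against 11 of the 28 decreases.

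Small differences moved with transcript length. Over 5 groups of tested genes of equal size ordered by exon length, from shortest to longest, the median log2 fold change rose from −0.08 through −0.05, −0.02 and 0.02 to 0.08. Of the called genes 1 increase and 19 decreases lay in the shortest group and 23 increases and 7 decreases in the longest. Outside chromosome 3 the increases had a median exon length of 10057 bases and the decreases one of 3079 bases. With an offset for length in each library, an alternative added after the data were seen, 53 genes were called and 51 of the 88 remained, including 9 of the 25 increases and 16 of the 28 decreases of this class. Aqp6, Slc4a1, Slc4a9, Slc26a4, Hmx2 and Tldc2 were among those that remained, while Zbtb37 (0.47 with the offset), Zdbf2 (0.46), Tet1 (0.30) and Kdm7a (0.31) were not.

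Chromosome 3 stood apart from the other chromosomes in the share of genes called. Of its 1015 tested genes 18 were called, 1.77% beside 0.444% over all genes, 12 higher and 6 lower. The next highest share was 0.900%, on chromosome 19, where Dmrt2 lies. Within chromosome 3, 14 of the 18 lay between 80 and 110 Mb on mm39, where 3.04% of 460 tested genes were called against 0.721% of the other 555; that window was drawn after the positions were seen. No gene on the sex chromosomes was called among 615 (edgeR, 97 or 15.8% at an unadjusted p under 0.05, beside 12.3% of all genes). DESeq2 called 10 of them higher and 3 lower, beside 434 of 16335 genes.

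**Figure D4:**
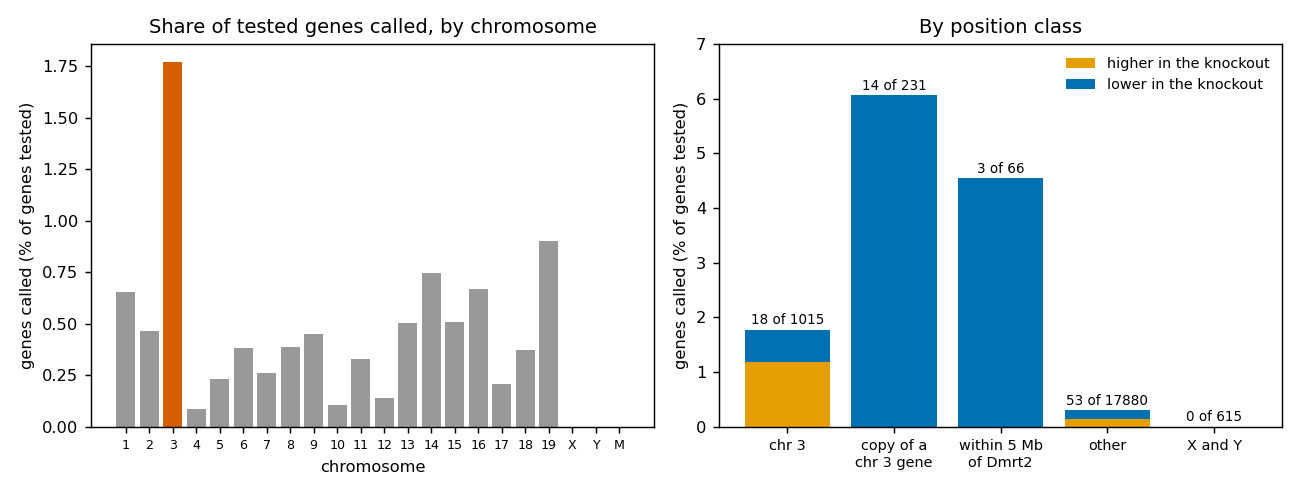
Left, share of tested genes called on each chromosome (bars, percent, from 0). Right, the same by position class, split into genes higher and lower in the knockout, with the numbers called and tested above each bar; chromosome 3 reaches 1.77% and the copies of its genes 6.06%, all lower.

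The named chromosome 3 genes that fell have different known functions. Hsd3b2, a steroid dehydrogenase gene, stood at 1.84, 2.78 and 1.16 CPM in the knockouts and 29.7, 23.6 and 23.5 CPM in the controls (−3.77 ± 0.34, adjusted p = 0.030). The other tested members of its family, Hsd3b3 (0.62), Hsd3b5 (−0.53) and Hsd3b6 (−0.33), which were read after their values were seen, did not pass. Of the 4 tested members, Hsd3b2 among them, 3 had an unadjusted p under 0.05 by edgeR, beside 12.3% of all genes. Cd1d2, a lipid antigen presenting gene, went from 1.501 to 0.357 CPM (−2.07), Rbm46, an RNA-binding protein gene of germ cells, from 3.22 to 0.967 CPM (−1.73), and Tmod4, a muscle tropomodulin gene, from 1.69 to 0.613 CPM (−1.46). P2ry14, the receptor of UDP-sugars, which the rule for names did not select and was chosen after its values were seen, fell from 6.85 to 2.704 CPM (−1.34 ± 0.15, adjusted p = 0.0011). Its controls lay within the range of the 9 other controls, 4.24 to 8.07 CPM, and its knockouts below that range. With Y-linked expression as a covariate the calls of Hsd3b2, Cd1d2, Rbm46, Tmod4 and P2ry14 were all lost. These losses belong to the covariate fit. In the Y-expressing libraries alone, with a lone knockout, their log2 fold changes were −3.79, −2.15, −1.87, −1.36 and −1.285, in that order. In the main fit they were −3.77, −2.07, −1.73, −1.46 and −1.34. Of 18 alternatives 8 lost the call of Tmod4 and 5 that of Hsd3b2.

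Those that rose were led by Fgb, the fibrinogen beta chain, at 3.804, 3.53 and 3.34 CPM against 1.77, 1.19 and 1.76 CPM (1.18 ± 0.19, adjusted p = 0.024). Fga (0.13) and Fgg (1.15, adjusted p = 0.66), which encode the other chains and were read after their values were seen, did not pass. Mab21l3 rose from 4.56 to 9.72 CPM (1.09 ± 0.13, adjusted p = 0.0023). In the Y-expressing libraries neither was called, with log2 fold changes of 1.27 for Fgb (adjusted p = 0.45, in a range of 2.3e-06 to 0.45) and 1.13 for Mab21l3 (adjusted p = 0.12, in a range of 5.7e-13 to 0.12). Rsbn1 (0.44), Synpo2, an actin-binding protein gene (0.41), and Zfp697 (0.40) followed with smaller folds.

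Copies of chromosome 3 genes on other chromosomes held the highest share of calls. Of 231 tested copies 14 were called, 6.06%, all lower in the knockout. A copy here is a gene elsewhere whose transcript matches a transcript of a chromosome 3 gene at 90% identity or more over at least 80% of its length, or whose symbol marks it as a pseudogene or related sequence of such a gene. Reads that fit a parent and its copy equally well are counted for neither, so values of both are uncertain.

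The strongest call in the comparison was such a copy. Tpm3-rs7, on chromosome 14, is a copy of Tpm3, a tropomyosin gene on chromosome 3. It stood at 1.96, 2.19 and 2.21 CPM in the knockouts and at 104.1, 105.5 and 95.7 CPM in the controls, 47.8-fold lower (−5.58 ± 0.08, adjusted p = 3.7e-13). Tpm3 itself stood at 335.8, 325.3 and 348.9 CPM in the knockouts and 281.1, 274.9 and 272.8 CPM in the controls (0.29 ± 0.05, adjusted p = 0.043). Of 18 alternatives 7 kept the Tpm3 call, which was lost without any 1 of the knockout libraries and with the exon-length offset. The controls of the other lines held 291.6 to 358 CPM of Tpm3, a range that held the knockouts and lay above the Dmrt2 controls. Tpm3-rs7 and Tpm3 summed to 338.8 CPM in the knockouts and 378.1 CPM in the controls. The 744 coding bases of the copy match Tpm3 at 741 positions (99.6%) with no gap, and all 3 mismatches fall in the stretch of 90 bases printed here from the GENCODE vM21 transcripts, coding bases 38 to 127 of the copy, with the mismatched bases in capitals.
Tpm3-rs7: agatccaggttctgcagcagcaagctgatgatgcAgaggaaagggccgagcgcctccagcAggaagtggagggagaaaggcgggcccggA
Tpm3: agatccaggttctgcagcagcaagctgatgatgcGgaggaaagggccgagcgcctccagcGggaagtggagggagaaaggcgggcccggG

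The 14 called copies belong to 8 parents, of which 1, Tpm3, was called. Phgdh, which encodes the first enzyme of serine synthesis, had 5 called copies. Together they summed to 1.56 CPM in the knockouts and 13.9 CPM in the controls, while Phgdh was at 255.9 and 248.4 CPM (0.04). Of these copies Gm9347 fell from 7.74 to 0.243 CPM (−4.97 ± 0.20, adjusted p = 5.5e-08). Gm8341 had 0 reads in the knockouts and 462 in the controls, at least 179.9-fold lower with a floor of 3 reads over the group. Gm5207 had 0 against 82 reads, at least 31.9-fold lower. Since a read pair can add 2 to a count, a floor in fragments would lower these bounds. The clone-named copies were chosen after their values were seen.

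Copies of ribosomal and contractile genes were lower as well. Rps3a2, a copy of the ribosomal protein gene Rps3a1, stood at 2.28, 2.55 and 1.74 CPM against 9.76, 11.03 and 12.3 CPM (−2.35 ± 0.16, adjusted p = 8.7e-06), while Rps3a1 was at 792.2 and 816.6 CPM. Gm7600, the other called copy of Rps3a1, gave −1.93. Cnn3, a calponin gene, had 2 called copies that summed to 0.147 against 4.13 CPM beside 249.4 and 255.3 CPM for Cnn3. Rpl34-ps1 (−1.21), Gm9392, a copy of Rap1a (−1.56), Gm5900, a copy of Lamtor3 (−1.26), and Gm48496, a copy of Slc35a3 with 3 reads in the knockouts and 78 in the controls, made up the rest.

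The controls of the other 2 lines give a further level for these genes, without a test. Of the 14 called copies 12 had Dmrt2 knockouts overlapping the range of the 9 other controls and Dmrt2 controls wholly outside it, and of the 18 chromosome 3 genes 11 did. Tpm3-rs7 held 1.07 to 1.91 CPM in the 9 other controls, near its knockout level of 1.94 to 2.21 CPM on the same scale and far from the 95.5 to 105 CPM of its own controls. The knockouts of Tpm3-rs7 lay just above the range of the other controls and did not overlap it. Hsd3b2 (1.16 to 2.82 CPM), Cd1d2 (0.201 to 0.512 CPM) and Fgb (3.57 to 6.75 CPM) in the other controls did overlap the knockouts. For 3 of the 18, which are P2ry14, Mab21l3 and Cenpe, named here for this standing, the knockouts stood outside and the Dmrt2 controls overlapped.

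Outside chromosome 3 the 53 calls divided otherwise: in 17 the knockouts stood apart from the other controls while the Dmrt2 controls overlapped them, in 21 the Dmrt2 controls stood apart, in 13 both overlapped and in 2 neither did. Aqp6 (8.82 to 19.9 CPM in the 9 other controls), Slc4a1 (15.96 to 20.7 CPM), Kit (48.2 to 59.9 CPM) and Slc26a4 (2.79 to 4.68 CPM) belong to the 17. Oxgr1 (12.9 to 19.95 CPM), Atp6v1g3 (10.4 to 15.6 CPM), Slc4a9 (38.7 to 50.2 CPM), Tldc2 and Pck1 (112.3 to 298.4 CPM) do as well. Hmx2 is among the 2 whose groups both lay outside. Gpx3, the secreted glutathione peroxidase of kidney, was chosen after its values were seen: it was at 1013 CPM in the knockouts and 1576 CPM in the Dmrt2 controls, and at 745.6 to 1421 CPM in the other controls, so the Dmrt2 controls stood apart. With chromosome 3 genes and copies left out of the fit, 18 genes were called, among them Aqp6, Slc4a1, Kit, Slc26a4, Slc4a9, Oxgr1, Atp6v1g3, Hmx2 and Tldc2.

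**Figure D5:**
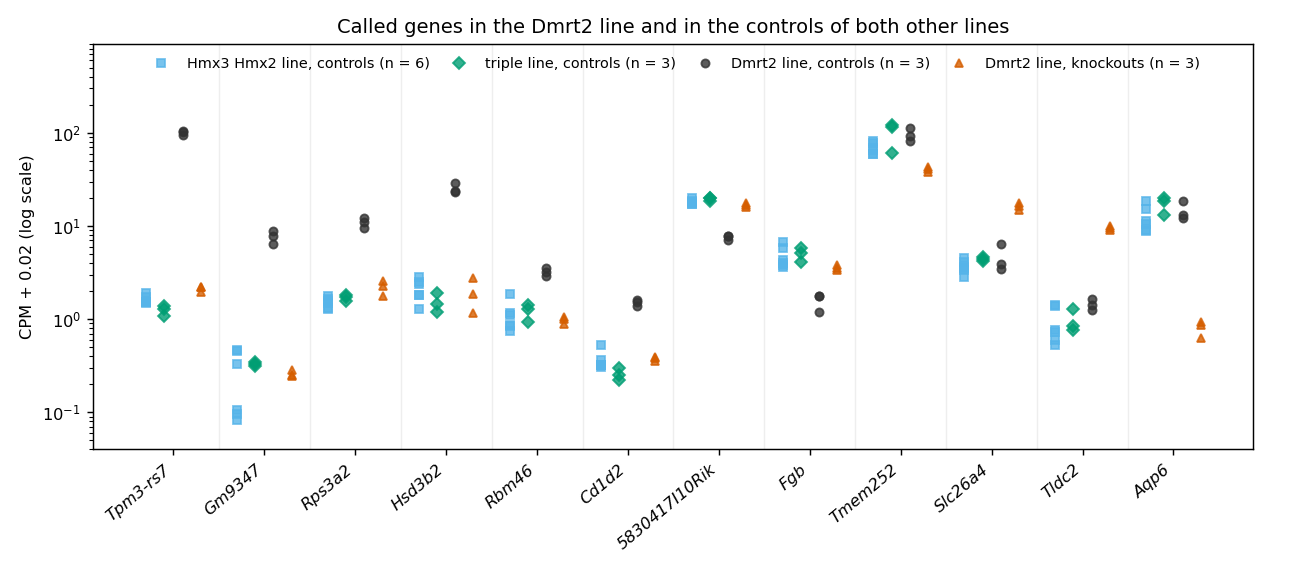
CPM plus 0.02 (log scale) of 12 called genes in controls of the Hmx3 Hmx2 line, controls of the triple line, and controls and knockouts of the Dmrt2 line; each point is a library. For Tpm3-rs7 and Hsd3b2 the Dmrt2 controls lie away from the other lines, while for Aqp6, Slc26a4 and Tmem252 the Dmrt2 knockouts do.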

How the data were processed

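Whole kidneys at embryonic day 18.5 were measured in 24 libraries, 6 of which form the comparison. The authors deposited counts of reads per gene, not normalized, with the summed exon length of each gene in bases as a further value; per the submitters' processing notes the tools were fastp 0.20.1, STAR 2.7.0e and featureCounts 2.0.1 on mm39. The file headers give featureCounts 2.0.3 and the GENCODE vM29 annotation. Per the file headers, pairs were not counted as fragments and no strand was used: 88.0% to 89.4% of counts from 1 to 19 were even, so counting error is larger than the reads imply. Of 54393 genes 15 had exons on several chromosomes, and 2 columns without a matching sample were left out. Libraries of a group differed by more than sampling noise (chi-square per degree of freedom 9.11 to 19.4).

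The deposited counts of the 6 libraries were fitted by edgeR 4.0.16 (R 4.3.3), using the filterByExpr filter (minimum count 10, total 15), TMM scaling and the robust quasi-likelihood F test, with Benjamini-Hochberg adjustment over all 19807 genes tested and a threshold of 0.05. Standard errors were taken as |log2 fold change| over √F. Means are CPM on TMM-scaled totals. For comparison with other lines all 24 libraries were scaled together, although their tables were deposited separately. Copies of chromosome 3 genes were found with blastn over the GENCODE vM21 transcripts, which cover 92.9% of genes off chromosome 3. DESeq2 1.42.0 was an alternative. On simulated data for this comparison (19807 genes, 100 changed 2-fold and 100 changed 4-fold) 68 and 86 were recovered, all in the right direction, with 17 false calls among 171 (9.94%), above the 5% that the threshold aims at, which bears on calls near it.

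The comparison, the gene lists and the rule for names were chosen with earlier results of these data known. The rule names Dmrt2, Hmx2 and Hmx3, every tested member of the 3 intercalated lists, called members or else the 2 largest differences of 38 other lists, the 10 largest increases and decreases outside chromosome 3, the 6 largest of each on chromosome 3 or its copies, and every call within 5 Mb of Dmrt2. Gene symbols that are clone names were passed over, and a few genes that the rule names are not reported here. No molecular identifiers are described, so bounds cover counting error only. Alternatives changed the scaling, the filter, the tool, the design or the libraries, 19 in all.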

Additional observations from a re-analysis of the deposited data

How the results depend on the processing

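All main calls kept their sign in each of the 19 alternatives that tested them, but counts moved. Leaving out 1 library at a time gave 26 to 195 calls in place of 88, with 6 to 82 higher, 20 to 113 lower and 7 to 149 outside chromosome 3, its copies and the Dmrt2 region in place of 53; the lowest were without knockout library 2 and the highest without control library 1, and without control library 3 there were 53 calls. Without a filter on low counts 676 genes were called (367 higher, 309 lower, 590 outside), and with DESeq2 434 (231, 203 and 370). The joint fit of 24 libraries called 71 higher and 94 outside. With Y-linked expression as a covariate 13 genes were called (6 higher, 7 lower, 6 outside). In the 4 libraries with Y-linked expression only, an alternative chosen after seeing the data, 22 were called (7, 15 and 12), with the lone knockout assumed to vary like the controls. Without chromosome 3 genes and copies, where the shared estimate of spread also rests on fewer genes, 18 were called (7, 11 and 16), and with the exon-length offset, also chosen after seeing the data, 53 (15 higher, 27 outside). The cause of these changes was not tested. The median of the type B and non-A non-B list moved from 0.52 to 0.66 with the Y-linked covariate, 0.66 in the Y-expressing libraries and 0.27 without chromosome 3 genes, where Insrr drops out. With the replicate number as a block 80 genes were called, 53 of them among the 88; same-numbered libraries correlated at 0.12, 0.10 and 0.07 in their deviations from group means, each library best with its own number, and the labels state no pairing, so the replicate block is a hint from the data only. Depth limits genes near 3 reads, and 3 libraries a group limit small folds.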
